A study of Zea mays with 6 samples.

Results

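The miR170 and miR171 guide strands of the maize ovary and the GRAS genes they cut were examined. The guides were taken by name, as every known miRNA named miR170 or miR171 and not marked as the 5p arm, which gave 7 of the 161 known miRNAs listed. Of 471 degradome entries, 48 belonged to these families, and 45 of those lay in genes annotated as GRAS or scarecrow-like. These were 4 of the 113 genes with entries, with 5 transcripts. The ovaries came from the inbred line Yu-A474, grown without stress and collected at silking before pollination, in which some ovaries have incompletely fused carpels (IFC) and their neighbours on the same ear have completely fused carpels (CFC, labelled wild-type). Small RNA was sequenced from 2 replicates of each phenotype, taken from different ear rows, and the degradome from 1 library a phenotype in which both replicates were mixed. All libraries share the 1 genotype, and no transcript level was measured that could check the tissue label by marker genes.

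miRNAs of plants pair along nearly their whole length with the target mRNA, and the Argonaute protein that carries the guide cuts the target opposite the middle of the guide. miR171 and its close relative miR170 direct the cutting of mRNAs for GRAS proteins of the scarecrow-like group. In Arabidopsis these targets are the HAIRY MERISTEM proteins, which keep cells of the shoot meristem undifferentiated. Degradome sequencing reads the 5′ ends of cut, uncapped mRNAs, so a tag that begins at the expected cut position marks a cleaved transcript.

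The 7 guide sequences are shown because they fell into different registers on one target site, that is, their 5′ ends started at different positions. They are written 5′ to 3′ with T for U, and capitals mark the seed (bases 2 to 8).
zma-miR171a-3p_R+1: tGATTGAGccgcgccaatatc
osa-miR171b: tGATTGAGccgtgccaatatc
tae-miR171a_R+1_1ss21CT: tGATTGAGccgtgccaatattt
ath-miR170-3p_2ss2GT14TC: tTATTGAGccgtgccaatatc
gma-miR171m_1ss21AC: tTGAGCCGcgtcaatatctcc
zma-miR171l-3p_L-3: tTGAGCCGcgtcaatatc
zma-miR171h-3p_L-1R+1: tGAGCCGAaccaatatcactc

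The species in a name is that of the miRBase entry a sequence was matched to, and all 7 were read from maize. The letters that follow the miRNA number give the bases gained or lost at an end and the substitutions against that entry. The first 4 guides had the same 5′ end, called the canonical register here. The next pair began 3 nt further downstream, the shifted register, and zma-miR171h-3p_L-1R+1 began 4 nt downstream. The canonical guides zma-miR171a-3p_R+1, osa-miR171b and tae-miR171a_R+1_1ss21CT shared the seed GATTGAG. ath-miR170-3p_2ss2GT14TC had TATTGAG, the shifted pair TGAGCCG and zma-miR171h-3p_L-1R+1 GAGCCGA.

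Few bases separated the guides once they were aligned on their common core. Positions are counted from 1 at the 5′ end of zma-miR171a-3p_R+1, whose base is given first. osa-miR171b carried C12T alone. tae-miR171a_R+1_1ss21CT carried C12T and C21T, and ath-miR170-3p_2ss2GT14TC carried G2T and C12T. Both shifted guides carried C14T, and zma-miR171h-3p_L-1R+1 carried C12A and G13A. The 18-nt zma-miR171l-3p_L-3 was the 21-nt gma-miR171m_1ss21AC without its last 3 bases.

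The hairpins were placed by the deposited table on 4 chromosomes, in a genome build not given in the sources used here. osa-miR171b came from chr10:142397980-142398067 on the plus strand, and zma-miR171h-3p_L-1R+1 from chr10:137341933-137342035 on the minus strand. zma-miR171a-3p_R+1 was placed at chr4:235054361-235054459 (plus). gma-miR171m_1ss21AC and tae-miR171a_R+1_1ss21CT were placed on the plus strand of chromosome 1, at chr1:245962339-245962529 and chr1:7950198-7950321. zma-miR171l-3p_L-3 and ath-miR170-3p_2ss2GT14TC were placed on the minus strand of chromosome 5, at chr5:20332011-20332094 and chr5:8552036-8552191.

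A guide could not always be tied to 1 hairpin. The sequence of osa-miR171b was found in 3 of the 7 deposited hairpins, its own and those of tae-miR171a_R+1_1ss21CT and ath-miR170-3p_2ss2GT14TC. The latter pair each differed from its own hairpin by 1 base, which is C21T for tae-miR171a_R+1_1ss21CT and G2T for ath-miR170-3p_2ss2GT14TC, here with the hairpin's base first and positions counted along the guide. The sequence of zma-miR171l-3p_L-3 was found in 2 hairpins, its own and that of gma-miR171m_1ss21AC. In these stretches of the hairpin arm the listed guide is in capitals and the bases before it, which a canonical-register product would hold, are in lower case.
zma-miR171l-3p_L-3 hairpin: ggaTTGAGCCGCGTCAATATC
gma-miR171m_1ss21AC hairpin: ggaTTGAGCCGCGTCAATATCTCC
The 21-nt canonical-register product of these hairpins was not among the 161 known miRNAs listed. It is, however, the miRBase entry that zma-miR171l-3p_L-3 was matched to, so that guide is this entry shortened at its 5′ end. The entry matched by gma-miR171m_1ss21AC was a different sequence.

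The target site was the same in all 4 GRAS genes for zma-miR171a-3p_R+1, whose alignment score was 0, meaning that no mismatch penalty was given. The site is therefore the reverse complement of that guide, and it is shown to place the tags on it. Capitals mark the first base of the tags of the shifted register (site base 9) and of the canonical register (site base 12).
GRAS target site: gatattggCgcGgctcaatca

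In both registers the tags began opposite base 10 of the guide, so the tag positions lay 3 nt apart as the guides did. The other guides paired less completely. Their alignment scores, sums of mismatch penalties in which a lower score is a closer match, were 1 for osa-miR171b and zma-miR171l-3p_L-3 and 3 for ath-miR170-3p_2ss2GT14TC in every GRAS gene. The score of gma-miR171m_1ss21AC was 2, or 3 in GRMZM2G110579, and that of tae-miR171a_R+1_1ss21CT was 1.5, or 2.5 in GRMZM2G110579. zma-miR171h-3p_L-1R+1 had no GRAS entry, so 6 of the 7 guides did. The degradome table lists the sequence of osa-miR171b under 4 names, which gave 9 names for the 6 sequences.

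Guide levels were deposited as NE, an expression value in RPM without correction for length. By the study's definition it scales each miRNA to the clean reads of its library. Low values did not all come to whole reads, so 1 sequenced molecule may not always count as exactly 1. The most abundant guide was the shifted gma-miR171m_1ss21AC, which ranked 13 among the 161 known miRNAs by mean NE. Its NE was 742 and 295 in the CFC replicates and 364 and 313 in the IFC replicates. Both IFC values lay between the CFC values, and CFC replicate 1 was 2.52-fold above CFC replicate 2. The means were 518 ± 316 in CFC and 338 ± 36.5 in IFC (SD, n = 2 each).

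osa-miR171b, the most abundant canonical guide, ranked 19. Its NE was 365 and 159 in CFC and 278 and 223 in IFC, so here too the IFC pair lay inside the CFC pair. The means were 262 ± 145 in CFC and 251 ± 38.7 in IFC (SD, n = 2 each). gma-miR171m_1ss21AC exceeded osa-miR171b within each of the 4 libraries, although the ranges of the 2 guides over all libraries overlapped.

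ath-miR170-3p_2ss2GT14TC had the widest gap between the IFC replicates. Its NE was 22.2 and 81.7 in CFC and 9.16 and 133 in IFC, a 3.68-fold gap within CFC and a 14.5-fold gap within IFC. Replicate 2 was the higher in both phenotypes, and the CFC pair lay inside the IFC pair. For gma-miR171m_1ss21AC and osa-miR171b it was replicate 1 that was the higher in both phenotypes.

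The guides of middle abundance varied less. zma-miR171h-3p_L-1R+1 had an NE of 26.9 and 34.1 in CFC and 24.4 and 41.1 in IFC. zma-miR171l-3p_L-3 had 7.89 and 10.1 in CFC and 10.9 and 7.53 in IFC. In both guides the CFC values lay inside the range of the IFC values.

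The rarest guides were near the limit of detection. The NE taken as 1 read, an inference from the commonest lowest value of a library, was 0.717 and 0.879 in the CFC and 1.15 and 0.837 in the IFC replicates, and a listed 0 allows up to 3 reads, an NE of 2.15 in CFC replicate 1 and 3.44 in IFC replicate 1. tae-miR171a_R+1_1ss21CT was listed at 0 and 4.39 in CFC and at 5.73 and 2.51 in IFC. zma-miR171a-3p_R+1, the guide that pairs without penalty, was listed at 1.52 and 0.439 in CFC and at 0 and 1.15 in IFC. It ranked 125 of 161, and every one of its values was under the NE of 3 reads in its library.

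Ordered by mean NE, the guides ran from gma-miR171m_1ss21AC (428) and osa-miR171b (256) through ath-miR170-3p_2ss2GT14TC (61.5), zma-miR171h-3p_L-1R+1 (31.6) and zma-miR171l-3p_L-3 (9.10) to tae-miR171a_R+1_1ss21CT (3.16) and zma-miR171a-3p_R+1 (0.778). Neighbours whose ranges over the 4 libraries did not overlap were osa-miR171b and ath-miR170-3p_2ss2GT14TC, zma-miR171h-3p_L-1R+1 and zma-miR171l-3p_L-3, and zma-miR171l-3p_L-3 and tae-miR171a_R+1_1ss21CT. The other neighbours overlapped.

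**Figure D1:**
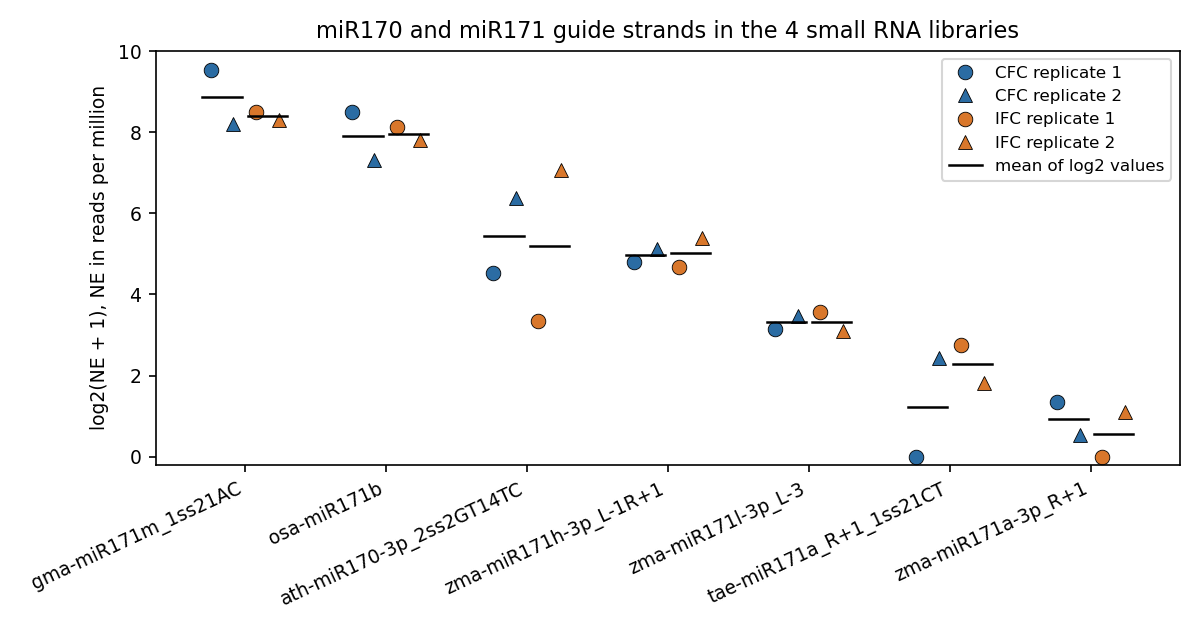
log2(NE + 1) of the 7 guides (NE in RPM), ordered by mean NE, with 1 point for each library (CFC in blue, IFC in orange, circles for replicate 1 and triangles for replicate 2) and a bar at the mean of the log2 values of each phenotype. The points of the phenotypes interleave for every guide, the IFC replicates lie farthest apart for ath-miR170-3p_2ss2GT14TC and the CFC replicates for tae-miR171a_R+1_1ss21CT, which has a 0 there.

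No guide separated the phenotypes. The CFC and IFC values overlapped for all 7, that is 0 guides separated, against 33 of 145 known miRNAs (22.8%), which are those that exceeded an NE of 1 in any library. In limma, a linear model on log2(NE + 1) with the spread shared across miRNAs, 0 of the 7 guides passed a Benjamini-Hochberg adjusted p of 0.05, and 0 of the 145 known miRNAs did (0%). At an unadjusted p under 0.05 there were 0 guides and 1 miRNA of the 145. By sign alone 4 guides had higher values in IFC and 3 lower, with a median log2 fold change of 0.02, beside 71 higher and 74 lower with a median of -0.02 over all 145. These signs are those of the mean log2 values, and for osa-miR171b (262 in CFC, 251 in IFC) and ath-miR170-3p_2ss2GT14TC (52.0 in CFC, 71.1 in IFC) the mean NE had the opposite order. The p-values measure only the spread between these samples, which came from different ear rows.

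The intervals of the differences were wide. For gma-miR171m_1ss21AC the log2 fold change of IFC against CFC was -0.47 (SE 0.81, limma adjusted p = 0.999, 95% interval -2.19 to 1.25). For osa-miR171b it was 0.05 (SE 0.81, limma adjusted p = 0.999, interval -1.66 to 1.76). These intervals hold both a halving and a doubling, so changes of that size were not excluded by these libraries. The highest value was that of tae-miR171a_R+1_1ss21CT, 1.07 (interval -0.85 to 2.98), a guide with a 0 in CFC replicate 1. Without CFC replicate 1 its log2 fold change was -0.15, and for each of the 7 guides leaving out some 1 library turned the sign.

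**Figure D2:**
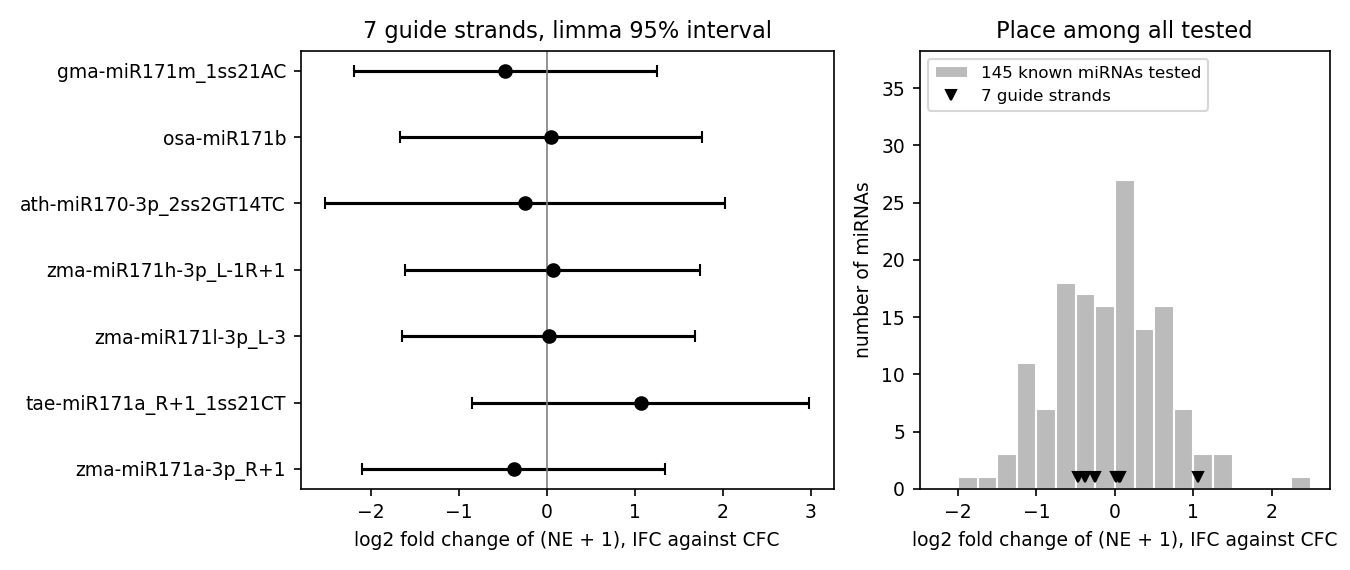
Left, the log2 fold change of NE + 1 of each guide, IFC against CFC, with its 95% limma interval, and right, the same values (triangles, placed at a fixed height) below the histogram of the 145 known miRNAs tested. All 7 intervals include 0, and the guides lie between -0.47 and 1.07.

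Summed over the 7 guides, NE was 1165 and 585 in CFC and 692 and 721 in IFC. This was 4.14% and 2.07% of the NE of all known miRNAs in CFC and 3.60% and 2.71% in IFC. CFC replicate 1 stood above the other 3 libraries, and the ranges overlapped. The difference of the means was -168, with an exact permutation p of 1 (two-sided, and the smallest p that 2 libraries against 2 can give is 0.33). Without CFC replicate 1 the difference was 122.

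Both registers held a large share of the guide pool. The 4 canonical guides summed to an NE of 388 and 246 in CFC and 293 and 360 in IFC. The 2 shifted guides summed to 750 and 305 in CFC and 375 and 320 in IFC. The shifted register therefore held 65.9% and 55.4% of the NE of both registers in CFC and 56.2% and 47.1% in IFC. The IFC pair reached lower, the ranges overlapped, and the exact permutation p was 0.667 (two-sided).

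Both arms were listed for 5 hairpins, and the guide arm was the higher wherever either arm was above 0, by a margin that differed between hairpins. In the hairpins of the most abundant guides, gma-miR171m_1ss21AC held 99.7% and 94.5% of the NE of the 2 strands in CFC and 96.1% and 92.0% in IFC. osa-miR171b held 97.6% and 92.1% in CFC and 96.2% and 90.8% in IFC. In both hairpins replicate 1 had the higher guide share in each phenotype. The shares of osa-miR171b count all of its NE to 1 hairpin, although its sequence was found in 3, so they may be too high. The same holds for zma-miR171l-3p_L-3, found in 2. The sequence of osa-miR171b was also listed as zma-miR171d-3p, and the most abundant 5p strand, zma-miR171d-5p (NE 41.9 to 202), was not matched to a listed guide.
The guide shares of zma-miR171h-3p_L-1R+1 were 100% and 87.6% in CFC and 89.5% and 87.5% in IFC, where its partner strand was listed at 0 in CFC replicate 1. The margin was narrower for zma-miR171l-3p_L-3, which held 84.6% and 100% in CFC and 76.0% and 69.2% in IFC, with an NE of 7.53 against 3.35 in IFC replicate 2. tae-miR171a_R+1_1ss21CT held 100% in CFC replicate 2 and 83.3% and 75.0% in IFC, on values near the detection limit.
The 8 5p-arm sequences of the families ran from a value of 0 to an NE of 202, and by sign 7 were higher in IFC and 1 lower, with a median log2 fold change of 1.04. For 3 of the 8 the IFC values lay wholly above the CFC values, beside 22.8% of all miRNAs in either direction. Of these 3, zma-miR171d-5p had an NE of 41.9 and 94.0 in CFC and 145 and 202 in IFC. zma-miR171m-5p_L-2R+3 was near the detection limit, at 1.43 and 0 in CFC and 3.44 and 3.35 in IFC. hvu-miR171-5p was listed at 0 in both CFC replicates and at 1.15 and 0.837 in IFC. Those IFC values are 1 read each, so its difference was not detectable. In limma 0 of the 8 5p-arm sequences passed after adjustment, and 0 had an unadjusted p under 0.05. Without CFC replicate 1 the median of the 8 was 0.39, with 6 higher and 2 lower.
The partner strand of gma-miR171m_1ss21AC, osa-miR171i-5p, had an NE of 2.15 and 17.1 in CFC and 14.9 and 27.2 in IFC, lowest in the library where that guide was highest.

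Some miRNAs of other families had patterns close to those of the guides. Likeness was the root mean square difference of log2(NE + 1), centred on each miRNA's mean, over the 4 libraries, among 62 miRNAs with an NE above 5 in every library. gma-miR171m_1ss21AC was nearest to zma-miR156j-5p_R-1 (0.168) and zma-miR166j-3p (0.203). osa-miR171b was nearest to the same zma-miR156j-5p_R-1 (0.177) and to osa-miR164a_1ss21AG (0.276). zma-miR156j-5p_R-1 had an NE of 527 and 180 in CFC and 287 and 259 in IFC, also highest in CFC replicate 1 and lowest in CFC replicate 2. zma-miR171h-3p_L-1R+1 was nearest to zma-miR166i-5p (0.101) and zma-miR168a-3p_R+1 (0.133). zma-miR171l-3p_L-3 was nearest to zma-miR156a-5p (0.185) and zma-miR164a-5p (0.198), distances close to its own spread over the libraries (0.204). The closest to ath-miR170-3p_2ss2GT14TC were zma-miR166h-5p_L-1R+4 (0.610) and zma-miR169c-3p_R-1 (0.839). These larger distances stand beside a larger own spread, 1.47 against 0.437 for osa-miR171b.

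The GRAS targets were GRMZM2G037792, GRMZM5G825321, GRMZM2G051785 and GRMZM2G110579. RefSeq gene names for maize assembly Zm-B73-REFERENCE-NAM-5.0 matched 3 of the 4, and GRMZM2G037792 has the synonym GRAS79 there. Each gene had tags at 1 canonical and 1 shifted position, 8 gene sites in all. Sites 3 nt apart occurred in these 4 genes and in no other gene of the table, where 13 genes had sites 1 nt apart. The 3-nt spacing follows from the offset of the listed guides, since sites were accepted only near the middle of a guide. In GRMZM2G037792 the tags of the canonical register began at transcript base 1333 and those of the shifted register at base 1330. In GRMZM5G825321 they began at bases 518 and 515 of the first transcript and 1471 and 1468 of the second. In GRMZM2G051785 they began at bases 688 and 685, and in GRMZM2G110579 at bases 1089 and 1086.

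The tags at a site were deposited as TPB, a tag count scaled to the raw sequencing output, in which 1 read was worth 59.9 TPB in the CFC library and 59.1 in the IFC library. Read equivalents can be fractional, which was taken to mean that a tag matching several transcripts was split between them. Which tags the related GRAS genes share could not be read, so the genes cannot be taken as independent. There was 1 library for each phenotype, so the values below have no replicate check, and fewer cuts cannot be told apart from fewer target transcripts. Intervals cover counting error alone.

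At the canonical position the signal of the CFC library was the higher in all 4 genes. In GRMZM2G037792 it was 1095 TPB in CFC and 319 in IFC, 18.3 and 5.40 read equivalents. In GRMZM5G825321 it was 1055 TPB in CFC and 334 in IFC, the same in both transcripts. In GRMZM2G051785 it was 419.6 TPB in CFC and 118 in IFC.
These signals were 0.292, 0.317 and 0.282 of the CFC value, respectively. Only GRMZM2G051785 had whole reads, 7 in CFC and 2 in IFC, and the exact 95% interval of its ratio was 0.0286 to 1.48, which includes 1. In GRMZM2G110579 the gap was smaller, 914 TPB in CFC and 709 in IFC, a ratio of 0.776. This gene had 15.2 and 12 read equivalents.

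So 3 of 4 canonical sites had an IFC signal of 0.5 of the CFC signal or less. Of the 81 gene sites of any miRNA above 0 in both libraries, 21 did (25.9%), and of the 38 with at least 5 read equivalents in 1 library, 6 did (15.8%). The 3 GRAS sites are part of both the 21 and the 6. GRMZM2G037792 and GRMZM5G825321 had near-equal values and may share tags, so the 3 may not be separate observations. The median IFC to CFC ratio over the 81 sites was 0.877.

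At the shifted position the libraries were closer. GRMZM2G037792 had 359.7 TPB in CFC and 315 in IFC, a ratio of 0.877. GRMZM5G825321 had 359.7 TPB in CFC and 296 in IFC, a ratio of 0.822. This was 6 and 5 read equivalents, the same in both transcripts, so they may be sums of split tags. Taken as whole reads, they gave an exact 95% interval of the ratio of 0.198 to 3.23. GRMZM2G110579 was the 1 site of the 8 with the higher signal in IFC, 555 TPB in CFC and 636 in IFC, a ratio of 1.15.
None of these 3 sites was at or below 0.5 of the CFC value. In GRMZM2G051785 the shifted site held 3 reads in CFC (179.8 TPB) and was listed at 0 in IFC, which allows up to 177 TPB, so no difference was detectable there.

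**Figure D3:**
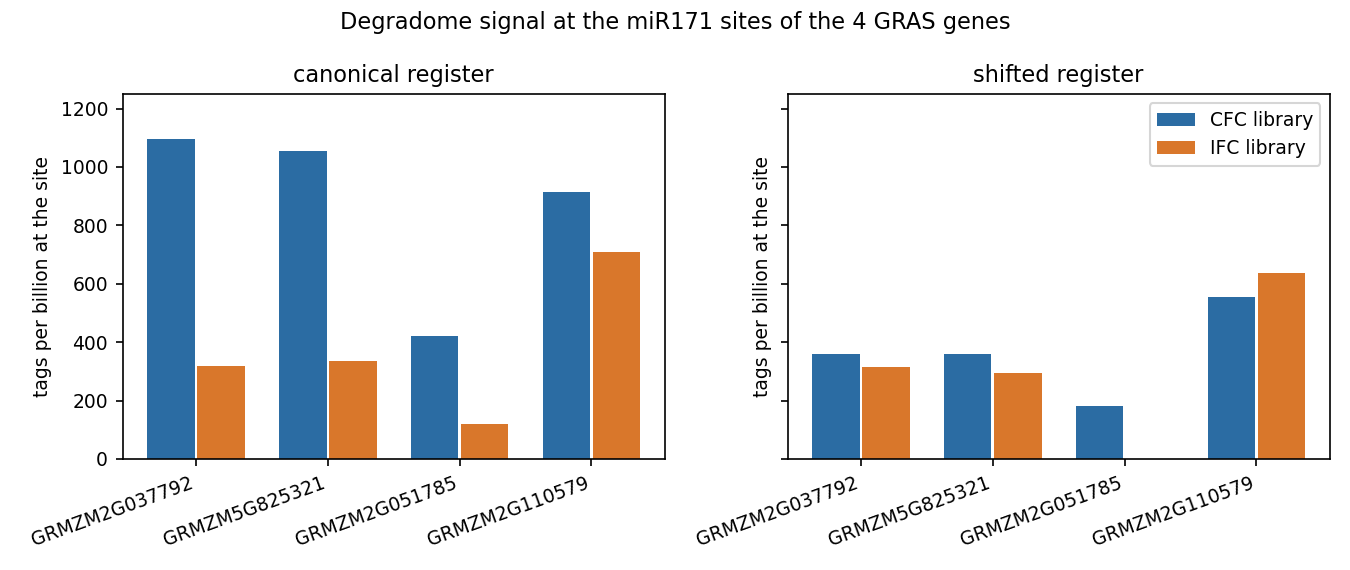
Degradome signal in TPB at the canonical (left) and shifted (right) positions of the 4 GRAS genes, with 1 bar for the CFC library (blue) and 1 for the IFC library (orange) and no replicates. The CFC bar is the taller in all 4 genes on the left, and on the right GRMZM2G110579 has the taller IFC bar and GRMZM2G051785 has none in IFC.

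The 2 positions also differed in their standing within each transcript. CleaveLand sorts sites into categories, of which 0 means the single highest peak of its transcript and 2 a peak between the median and the highest. The canonical position was in category 0 in all 4 genes in CFC and in 3 in IFC, where GRMZM2G051785 was in category 2. The shifted position was in category 2 in every library in which it had tags. The deposited p-values of the canonical sites of category 0 were between 0.00334 and 0.0254, and those of the shifted sites were 0.465 or more.

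Summed over the 4 genes, the canonical position held 3484 TPB in CFC and 1481 in IFC, a ratio of 0.425. The shifted position held 1454 TPB in CFC and 1246 in IFC, a ratio of 0.857. The canonical share of read equivalents was 58 of 82 in CFC (70.7%, Clopper-Pearson 95% interval 59.6% to 80.3%) and 25 of 46 in IFC (54.3%, interval 39.0% to 69.1%). These intervals overlap, and the difference of the shares was not tested.

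By gene, the canonical share in CFC was 75.0% in GRMZM2G037792 and GRMZM5G825321, 70.0% in GRMZM2G051785 and 62.5% in GRMZM2G110579. In IFC it was 50.0% in GRMZM2G037792, 54.5% in GRMZM5G825321 and 52.2% in GRMZM2G110579. GRMZM2G051785, with 2 reads at its canonical position in IFC, had 100% (interval 15.8% to 100%). In the 3 genes with more than 2 reads in IFC the share was lower in IFC than in CFC, and in each gene the intervals of the libraries overlapped.

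Set side by side, the registers took different shares of guide NE and of tags in CFC, but not clearly so in IFC. The shifted sites had CleaveLand p-values of 0.465 or more, so their tags were not told apart from other mRNA ends. Whether the shifted guides cut there was not tested. The shifted register held 47.1% to 65.9% of the guide NE in the 4 small RNA libraries, but 29.3% of the read equivalents at the GRAS sites in CFC (interval 19.7% to 40.4%) and 45.7% in IFC (interval 30.9% to 61.0%). The CFC interval lay below the shares of both CFC small RNA libraries. The IFC interval held the share of both IFC small RNA libraries. Each interval rests on 1 degradome library and counts rounded read equivalents as independent, although the related genes may share tags. The small RNA and degradome libraries were made from the same ovaries, and tags at a position cannot be assigned to 1 guide of a register.

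**Figure D4:**
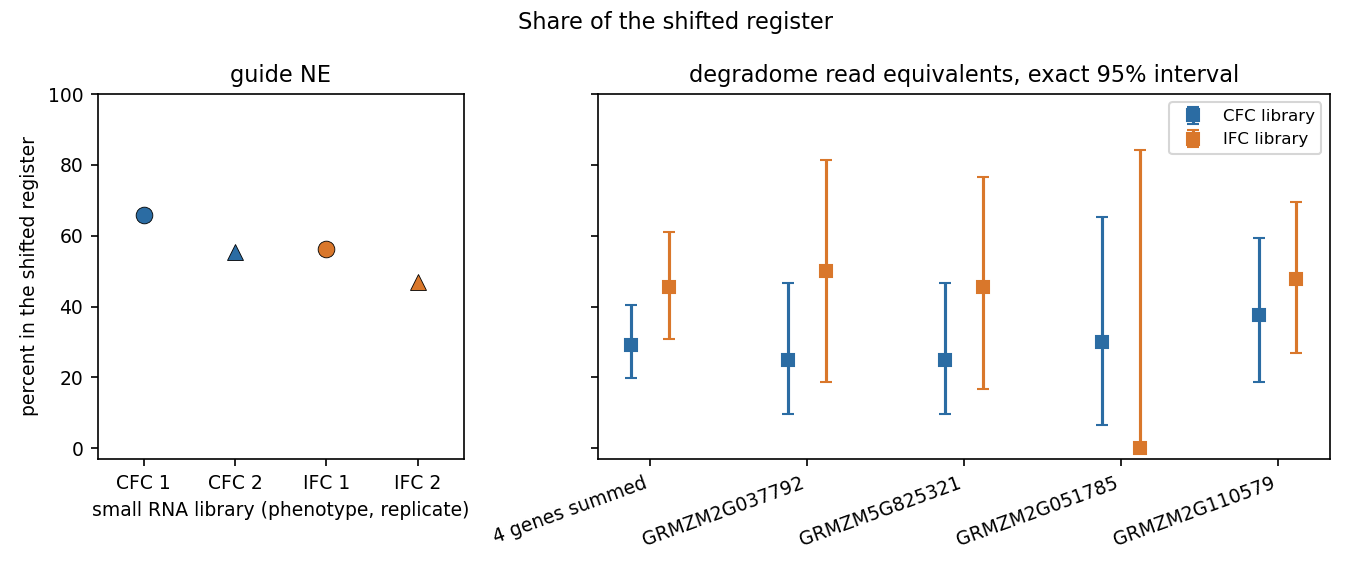
Percent of the shifted register, left in the NE of the 6 guides of both registers for each small RNA library, and right in the degradome read equivalents of the 4 GRAS genes, summed and singly, for the CFC (blue) and IFC (orange) library with exact 95% intervals for counting error. The guide shares run from 47.1% to 65.9%, and the summed degradome shares are 29.3% in CFC and 45.7% in IFC.

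Outside the GRAS genes, the families had 3 entries in 2 genes annotated as SIT4 phosphatase-associated proteins, GRMZM2G096107 and GRMZM2G000039. They belonged to the shifted guides gma-miR171m_1ss21AC and zma-miR171l-3p_L-3 alone. Each site had 40.0 TPB in CFC and 19.7 in IFC, less than 1 read in either library.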

How the data were processed

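The authors removed adapters, junk, structural RNAs, repeats and exon reads from the small RNA, aligned what remained to precursors in miRBase (ACGT101-miR), and deposited NE in RPM. The deposited hairpin GC content, in percent, was not used in a comparison. For the degradome the authors ran CleaveLand, set to accept cuts at bases 9 to 11 of the guide, and deposited for each site the signal (TPB), a category, a p-value and an alignment score. Columns of no known sample numbered 0. The authors' target class was not used.

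The known miRNAs summed to an NE of 19255 to 28278 a library. Among NE values under 20, 65.9% to 78.2% came to whole reads (tolerance 0.01 reads), so reads were not taken back to counts. Judged by the value of 1 read, NE was divided by 873087 to 1394658 reads. That is several times fewer than the valid reads the study states, a gap not resolved here, so the value of 1 read and the limits set from it are uncertain.

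For the 145 known miRNAs that exceeded an NE of 1 in any library, limma 3.58.1 (R 4.3.3) was run on log2(NE + 1), two-sided, without a block, and the fit was tested on simulated data. Exact permutation tests and Clopper-Pearson intervals used scipy 1.17.1. Every guide and GRAS gene was named and, for the 5 guides above an NE of 5 in all libraries, the 2 most similar miRNAs of other families. The members and lists were chosen with earlier results of these data known. Alternatives were other pseudocounts, filters, scaling and priors, a replicate block, leaving out each library, and for the degradome another scaling, other rounding and other gene sets.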

Additional observations from a re-analysis of the deposited data

How the results depend on the processing

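The count of 0 guides called held under all 11 alternatives, with limma adjusted p from 0.262 to 0.999. Other pseudocounts, filters, scaling and priors turned no guide's direction. Replicate number was used as a block in 1 alternative, with 0 guides called and the same log2 fold changes (-0.47 for gma-miR171m_1ss21AC). Across 145 miRNAs the differences between replicates 1 and 2 in CFC and IFC correlated at r = 0.25 (Spearman rho 0.21). IFC ovaries were sampled near CFC ovaries of the same ear, so samples of equal number may be paired. The labels name no shared batch and do not tie the numbers to an ear row. With 2 pairs, the numbers were not taken as pairs in the main fit. Compared by number, a block chosen after seeing the data, the shifted share of guide NE was lower in IFC in 2 of 2 pairs, with differences of -9.71 and -8.31 percentage points (mean -9.01, paired exact permutation p = 0.50, the smallest that 2 pairs can give).
Leaving out 1 library turned the direction of each of the 7 guides. The log2 fold changes then ran from -1.13 to 0.19 (gma-miR171m_1ss21AC), -0.55 to 0.64 (osa-miR171b), -2.11 to 1.61 (ath-miR170-3p_2ss2GT14TC), -0.30 to 0.43 (zma-miR171h-3p_L-1R+1), -0.22 to 0.26 (zma-miR171l-3p_L-3), -0.15 to 2.28 (tae-miR171a_R+1_1ss21CT) and -0.93 to 0.17 (zma-miR171a-3p_R+1).
The summed NE difference of IFC minus CFC ran from -458 to 122 for the 7 guides, from -62.1 to 80.7 for the canonical and from -402 to 42.7 for the shifted register. In the degradome, both counts of sites were unchanged after scaling by the median site ratio. With whole-read sites alone, 1 gene (GRMZM2G051785) was left and the canonical share in IFC was 100%, on 2 reads. Rounding down, and, chosen after seeing the data, summing both transcripts of GRMZM5G825321 or leaving out GRMZM2G110579, kept the shares within their intervals.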
